A study of Arabidopsis thaliana with 6 samples.

Results

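A group of 81 Arabidopsis probe sets read lower at day 2 in high differentiating liquid medium than in callus, and higher again at day 9. Members were chosen from the deposited array intensities, which are brightness values on a linear scale. Values below a floor of 24.7 were first raised to it, because differences between dimmer values have no order. A probe set (the probes that measure 1 transcript) was taken if its day 2 array in high differentiating medium read at most 0.5 times callus and its day 9 array in that medium read at least 1.8 times day 2. Of 22746 non-control probe sets, 82 (0.361%) met both thresholds, and leaving out the lignin gene HCT left 81. No named glutathione transferase gene of the GSTU class met them, but 45 of the 81 are unnamed here, so that exclusion could be applied only to named probe sets. A further 35 members pair with exactly 1 gene and 1 pairs with several genes. These arrays (callus and high medium at days 2 and 9) chose the members, so the dip and the recovery are descriptions with no test.

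All 6 cultures were of ecotype Ler, with 1 array for each condition. Leaves from seedlings aged 14 to 17 days were held for 2 weeks at 22 °C in darkness on medium with 2.0% glucose, 0.5 mg/l of the auxin 2,4-D and 0.05 mg/l of the cytokinin kinetin, and callus taken then is day 0. The remaining 5 arrays are from callus moved into shaken liquid medium with 0.2% sucrose and 4% mannitol. High differentiating medium, read at days 2, 5 and 9, added 0.2 mg/l auxins (2,4-D, NAA and IAA) and 1 mg/l benzyladenine, a cytokinin. Low differentiating medium, read at days 5 and 9, added 0.5 mg/l 2,4-D and 1.5 µg/l kinetin. A growth field of the labels lists the high medium hormones for every culture, so media were taken from the treatment text, which names the same medium as the source name. There was no day 2 array in low medium, so whether the dip occurs there was not measured. The label calls the tissue cell culture, and of 7 measured cell type markers LBD16, a gene of callus founder cells, and LHCB4.1 of leaf mesophyll were above the floor on all 6 arrays. LBD29, the other marker of callus founder cells, was below it on all 6. OPS of phloem was above it on 5, while ACR4 of epidermis, EXPA7 of root hairs and CLV3 of the shoot meristem were at or below the floor on every array.

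Callus is a mass of dividing cells that forms when tissue is given auxin and cytokinin. Moving it from solid medium into a shaken, low-sugar liquid alters sugar, osmotic strength, contact with solid support and hormone supply together. Plant cells are known to answer such shifts through wall-modifying proteins, dehydrins, chaperones, nutrient transporters and enzymes that conjugate small molecules. Roles were assigned after the members were known, so the presence of genes of these kinds among the named members is not a result. Whether the shift altered any of these members was not tested.

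Most members read close to callus again by day 9 in high medium. Over the 81 members the intensity in callus had a lowest value of 49.6, a median of 151 and a highest of 1011. On the day 2 array in high medium these were 24.7, 54.2 and 277, on its day 5 array 27.3, 93.1 and 454, and on its day 9 array 45.3, 143 and 593. The low medium arrays gave 24.7, 96.2 and 639 on day 5 and 31.6, 114 and 646 on day 9. The median member therefore read 2.64-fold lower at day 2 than in callus and 2.26-fold higher at day 9 than at day 2. The dip was under 3-fold in 57 members and at least 4-fold in 13. At day 9 in high medium, 65 members lay within 1.5-fold of callus and 19 read at or above it. On that array 4 members read at least 1.5 times callus, and 5 were still at most 0.5 times it. The rule required a rise from day 2 to day 9, so a member with a shallow dip had to end near or above callus. The nearness to callus thus follows in part from the thresholds, and nothing is read from the count of 65. The same day 2 array gives both the dip and the recovery, so a low reading on that array alone would place a probe set in the group, and this cannot be told apart from a dip in the culture. In cultures of mixed cells, fewer cells of a type and less RNA per cell cannot be told apart either.

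**Figure D1:**
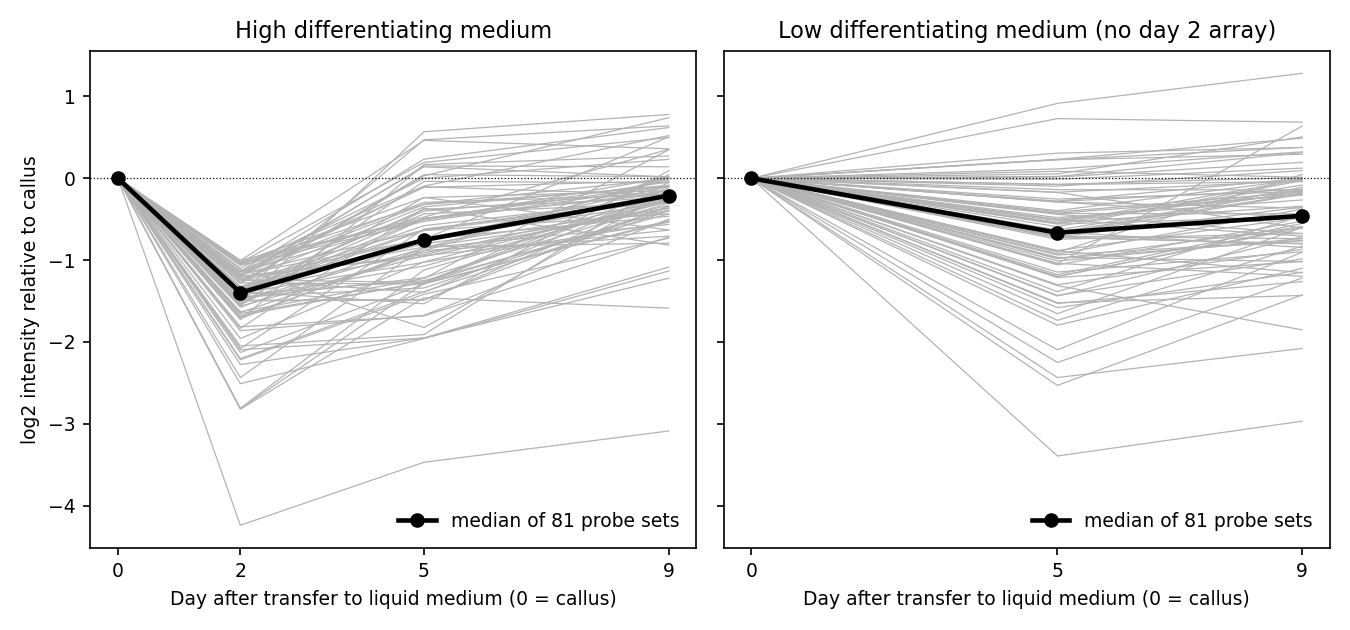
The panels show log2 intensity relative to callus for each of the 81 probe sets (grey) and their median (black) against day, in high medium on the left and low medium on the right. The high medium median is -1.40 at day 2, -0.75 at day 5 and -0.21 at day 9, and the low medium median is -0.66 at day 5 and -0.46 at day 9.

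Of all 22746 probe sets, 374 (1.64%) were at most 0.5 times callus at day 2 in high medium, and the 81 members are 21.7% of these. The 292 that dipped without this recovery had a median intensity of 128 in callus and medians of 47.5, 49.9 and 54.9 along the high medium series of days 2, 5 and 9. The opposite shape, a peak at day 2 by the mirrored thresholds, was met by 137 probe sets. Among the named members nearest the limits, Hsp70-2 and AT2G44500 lay just inside the dip threshold, at 2.03 and 2.04 times lower than callus. PUCHI, at 1.95, and AT1G62480, at 1.92, lay just outside. For the recovery, Hsp70-2 at 1.83 and AT1G33030 at 1.85 were just inside, and AT4G01090 and BGLU28, both at 1.79, just outside.

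**Figure D2:**
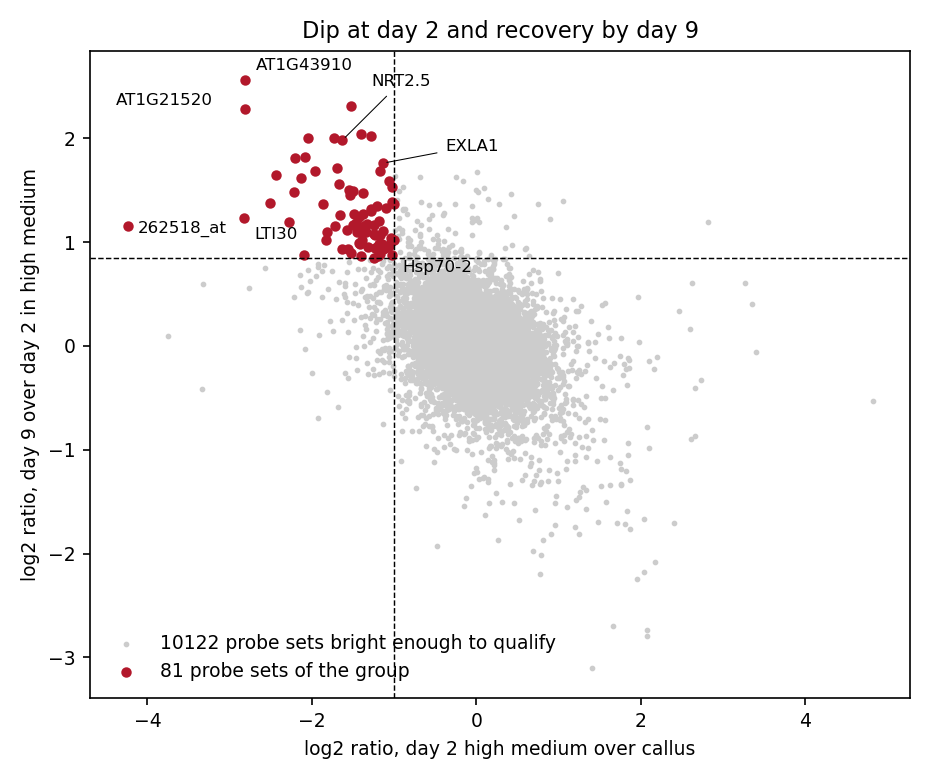
Each point is a probe set, with the log2 ratio of day 2 in high medium over callus on the x axis and that of day 9 over day 2 on the y axis. The 81 members (red) fill the corner cut off by the dashed thresholds among the 10122 probe sets bright enough to qualify (grey). The day 2 array enters both axes with opposite signs, which tilts the grey cloud.

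Wall-modifying genes were among the brightest members. EXLA1, an expansin-like protein gene of a family linked to wall loosening, had an intensity of 386 in callus, a high medium series (days 2, 5 and 9) of 175, 454 and 593, and a low medium series (days 5 and 9) of 639 and 620. Every liquid culture but that of day 2 lay above callus. EXGT-A3 (also XTH27), of the enzymes that cut and rejoin xyloglucan, read 550 in callus, with a high medium series of 205, 392 and 483 and a low medium series of 452 and 502. Its later arrays all read above day 2 and below callus in both media. In a family list of 39 measured cell wall protein genes, 4 were lower by 2-fold or more at day 2 and 2 were higher, and 18 were at the floor on both arrays. The median log2 ratio was 0.00, as over all 13286 named genes, of which 5558 were at the floor on both arrays. Genes at the floor on both arrays count as 0.00, so nothing is read from these matching medians.

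The dehydrin and chaperone members differed in how far they came back. LTI30, a dehydrin gene known for induction by cold and drought, dipped to 36.2 at day 2 against 256 in callus, a 7.07-fold difference. Its later readings were 93.1 and 85.2 with high medium and 103 and 70.9 with low medium (days 5, 9), so no later array reached 0.5 times callus. Of the 4 measured genes in the list for abscisic acid, cold and osmotic stress, COR47 was also at least 2-fold lower at day 2, reading 80.0 at day 2 and 66.9 at day 9 with high medium, against 319 in callus, and it did not recover there. The 2 other genes, COR15A and COR15B, were below the floor at day 2 and in callus. Hsp70-2 encodes a cytosolic HSP70 chaperone, and how far its probes separate it from close copies was not tested. It read 173 at day 2 against 352 in callus and came back to 299 and 317 at days 5 and 9. Among the 5 measured genes of the heat shock and chaperone list it was the exception, since the 4 others were at least 2-fold higher at day 2 than in callus (background 1.6% of all probe sets).

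Transport was represented by 2 genes, neither of which had reached 1.8 times day 2 by day 5 in high medium. NRT2.5 encodes a high-affinity nitrate transporter known from nitrogen-starved roots. Its intensity was 102 in callus, with a high medium series of 32.9, 43.6 and 130 and a low medium series of 49.4 and 159. In both media it was low at day 5 and above callus at day 9. AT2G16660, of the major facilitator superfamily of membrane transporters, read 281 in callus, then 64.3, 115 and 197 in high medium, and 104 and 172 in low medium. The list fixed for nitrate assimilation had 0 measured genes here, so NRT2.5 could not be set beside its pathway.

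The signalling and surface group held 6 genes. AT1G72900, which encodes a protein with the TIR domain of immune receptors, read 239 in callus, with a high medium series of 56.5, 155 and 199 and a low medium series of 83.2 and 88.5. It came back in high medium and stayed low in low medium. AT5G18470, a mannose-binding lectin gene, read 175 in callus, 30.7, 45.0 and 79.8 in high medium, and 50.4 and 81.6 in low medium. That return was partial, at 0.456 times callus at day 9 in high medium. AT3G47480, of the EF-hand calcium-binding family, read 115 in callus and was under the floor at day 2, a dip of at least 4.65-fold, followed by 43.0 and 69.2 in high medium. TET8, a tetraspanin gene whose protein marks extracellular vesicles, was brighter, with 409 in callus against 158, 315 and 348 along the high medium series and 248 and 236 in low medium. AT4G37290, which encodes the precursor of a small secreted immune peptide, had returned to 78.2 by day 5 after 31.3 at day 2, against 75.8 in callus. AT3G63240, of an inositol phosphatase-like family, read 98.8 in callus, 38.1, 58.6 and 92.1 in high medium, and 116 and 128 in low medium, both low medium values above callus.

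The 3 transcription genes had shallow dips, of at most 2.62-fold. AT5G61890, a transcription factor gene of the ERF family, read 258 in callus, 117, 239 and 252 in high medium, and 176 and 244 in low medium. AT3G11580, of the B3 family of transcription factors, had 108 in callus and 48.9, 76.5 and 96.3 in high medium. AT3G56880 encodes a protein with a VQ motif, a motif known for binding WRKY transcription factors, and read 677 in callus against 259, 360 and 524 in high medium. Of 45 measured AP2/ERF genes in the family list, AT5G61890 alone was at least 2-fold lower at day 2, and 0 were at least 2-fold higher. Of all probe sets 1.64% were lower and 1.6% higher by that much. In 12 of the 45 genes both arrays were at the floor.

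AAA-type ATPase genes, whose proteins use ATP to remodel other proteins, gave 3 members. AT1G43910 had the highest recovery of all 81, with 380 in callus, a high medium series of 54.2, 175 and 319, and a low medium series of 79.9 and 163. That is a dip of 7.02-fold and a return of 5.89-fold by day 9. AT3G28580 read 125 in callus, 42.6, 122 and 120 in high medium, and 55.3 and 85.3 in low medium. By day 5 it read close to callus in high medium, while both low medium arrays stayed below. AT4G36580 was dim, at 53.8 in callus and 26.1, 43.2 and 53.6 along the high medium series.

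Enzyme genes were the largest named group, with 10 members. UGT87A2, a glycosyltransferase gene of the class that attaches sugars to small molecules, was the brightest of them, at 819 in callus, 277, 425 and 528 in high medium, and 562 and 646 in low medium. It stayed below callus on every later array. In its family list of 43 measured genes 5 were at least 2-fold lower at day 2, 0 were at least 2-fold higher and 24 were at the floor on both arrays. FMO, which encodes a flavin-dependent monooxygenase, read 454 in callus, 140, 246 and 461 in high medium, and 302 and 445 in low medium. Both day 9 arrays matched callus closely. FDH encodes the mitochondrial enzyme that oxidises formate, and read 160 in callus, 63.5, 121 and 143 in high medium, and 142 and 105 in low medium. AT3G02910, of the AIG2-like family, was slower, with 714 in callus and a high medium series of 203, 222 and 434. AT5G03610, a GDSL lipase gene, dipped 4.61-fold, to 30.1 at day 2 against 139 in callus, and read 105 at day 9.

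The 5 other enzyme genes had dips of 2.04 to 2.67-fold. AT2G44500, of the O-fucosyltransferase family, read 114 in callus, 55.8, 130 and 161 in high medium, and 141 and 148 in low medium, so all arrays but day 2 exceeded callus. AT5G22460, of the alpha/beta-hydrolase superfamily, was under the floor at day 2 and reached 74.1 by day 9, against 51.6 in callus. AT1G06550, a crotonase-family gene, AT5G01210, an acyltransferase-family gene, and AT1G33030, an O-methyltransferase-family gene, read 158, 65.7 and 29.0 at day 2 against 365, 176 and 65.2 in callus, in that order.

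No role is given here for the 7 remaining named members. AT1G21520 had the deepest dip among them, at 219 in callus and 31.1, 90.0 and 151 in high medium, a 7.04-fold dip and a 4.87-fold return. AT2G04480 was lower still at day 5, with a high medium series of 47.9, 29.2 and 92.2 against 103 in callus. AT4G17350 overshot in both media, at 169 at day 9 in each, against 119 in callus. AT3G47210 read 28.1 at both day 2 and day 5 in high medium and 67.7 at day 9. AT1G28190, AT2G30930 and AT1G19020 had dips of 3.15, 2.28 and 2.88-fold.

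**Figure D3:**
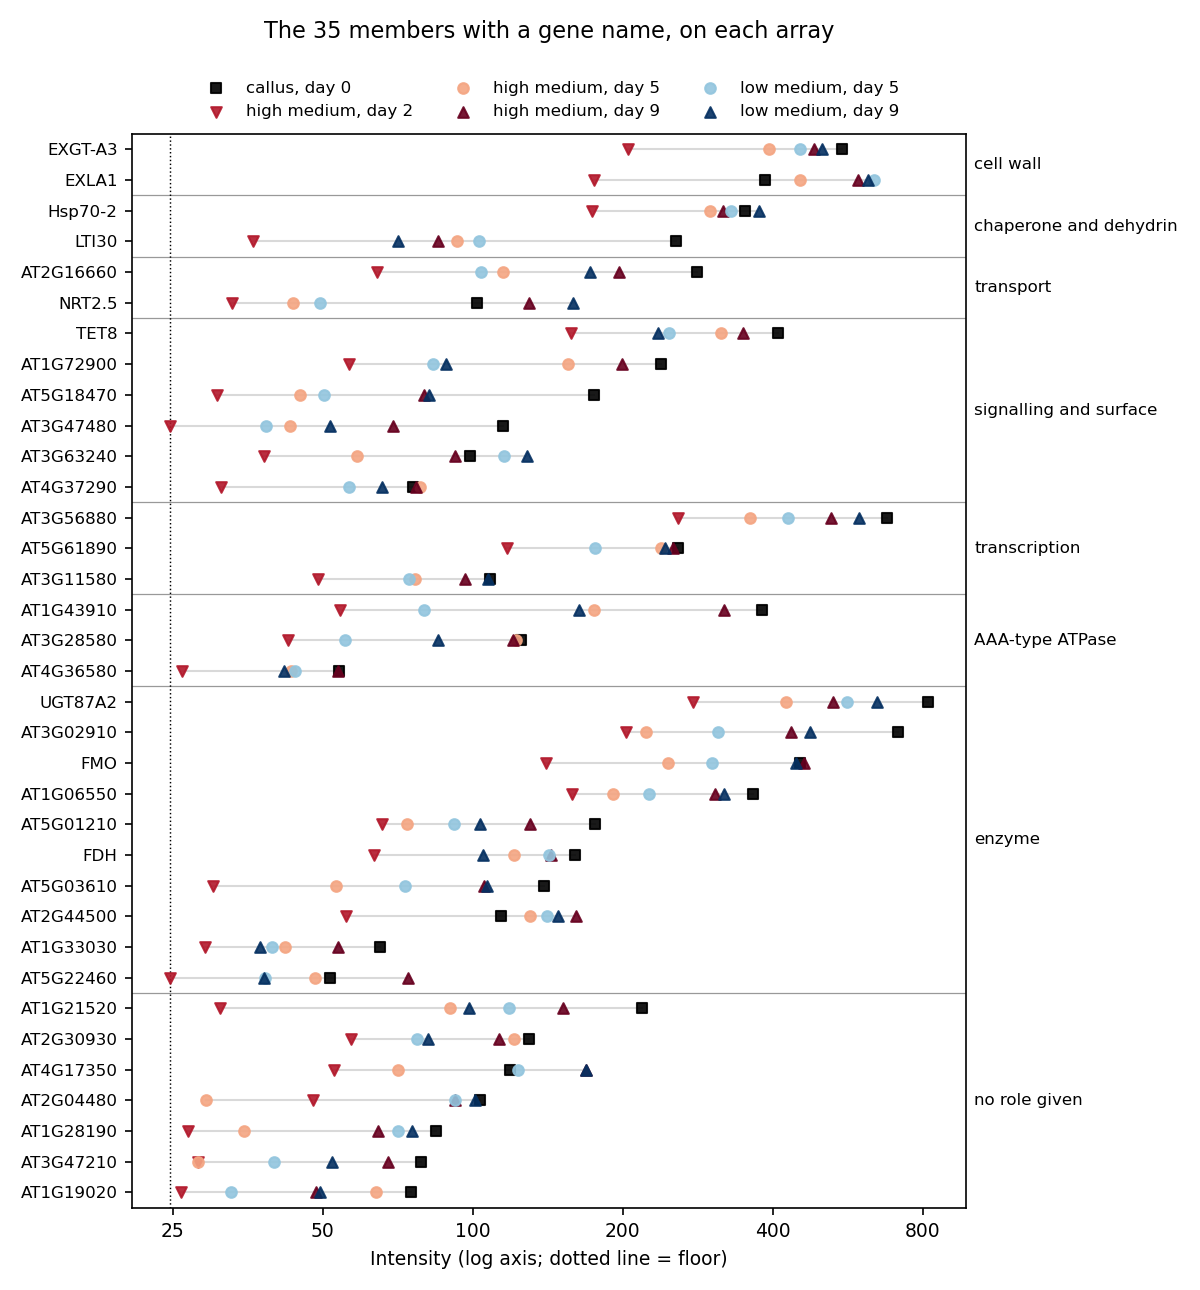
Each row is a named member and each marker its intensity on 1 array, on a log axis, with values below the floor of 24.7 drawn at the floor. In most rows the day 2 high medium array (downward triangle) is leftmost, as the choice of members favours, and AT2G04480, lowest at day 5, is an exception.

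The members differed in how far they read above day 2 at day 5 in high medium. There, 31 members already read at least 1.8 times day 2, 16 read less than 25% above day 2, and 34 lay between. The rule did not use the day 5 array, but it did use the day 2 array that divides it. These classes rest on single arrays and have no share over all probe sets beside them, so they are descriptions only. By the 2-fold rule 22 were higher at day 5 than at day 2 and 0 lower, where 0.8% and 0.55% of all probe sets were, but the low day 2 reading that chose the members enters this ratio and nothing is read from it. A member at 1.8 times day 2 or more is here called back by day 5, whatever its distance from callus. Such members included EXLA1, EXGT-A3, TET8, AT1G72900, AT3G28580, AT1G43910 and AT5G61890. At day 5 in high medium AT1G43910 read 0.46 times callus and AT1G72900 0.65 times, while EXLA1 read 1.18 times callus. Named members that came back after day 5 were AT1G06550, AT5G01210, AT3G02910, AT2G04480 and AT3G47210. In 65 of the 81, day 5 in high medium read below both callus and day 9. The rule used both of those arrays, so nothing is read from this count. From day 5 to day 9 in high medium 12 members were at least 2-fold higher and 0 lower, against 0.268% and 0.453% of all probe sets, a comparison that also shares the day 9 array with the rule.

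In low medium the same genes could be followed on 2 arrays that played no part in choosing them. At day 9 compared with day 5, 64 of 81 members (79.0%) read higher, where 63.0% of the 292 that dipped without recovery and 55.0% of the 10122 probe sets bright enough to have met both thresholds did. Of the 292, 184 read higher, 80 lower, and 28 were at the floor on both arrays. Those 28 count as not higher and so lower the 63.0%, while 0 members were at the floor on both arrays and 17 read lower. The rise from day 5 to day 9 was 2-fold or more in 5 of the 64 members, and 0 members were lower by that much. Of the 292 that dipped without recovery, 4 (1.37%) were higher by that much and 0 lower, so the absence of 2-fold lower readings is shared. Over all probe sets the 2-fold background was 0.141% higher and 0.444% lower. Among the 10122 it was 0.257% and 0.405%. The median log2 ratio of day 9 over day 5 was 0.25 over the members, 0.11 over the 292 that dipped without recovery and 0.03 over the 10122. NRT2.5 led, with a log2 ratio of 1.68, and AT1G43910 followed among named genes with 1.03. The 3 others were probe sets unnamed here, of which 263836_at was below the floor at day 5. LTI30 and FDH ran the other way, with log2 ratios of -0.54 and -0.44. Both low medium arrays are single samples, so the shift has no replicate check. The day 5 array had the highest scan background, 105 against 82.0 at day 9, and its part in the shift was not tested.

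The share reading higher at day 9 in low medium can be set out by when a member came back in high medium. Of the 31 back by day 5, 24 read higher at day 9 than at day 5 in low medium, with a median log2 ratio of 0.22. Of the 34 between, 28 did, with a median of 0.27, and of the 16 that came back later, 12 did, with a median of 0.34. The shares were 63.0% over the 292 that dipped without recovery and 55.0% over the 10122. The 63.0% counts 28 probe sets at the floor on both arrays as not higher. Differences between the classes were not tested. Across the 81 members, which share the same arrays, log2 ratios of day 9 over day 5 in the 2 media had a Pearson correlation of 0.13. It was 0.25 over the 292 and 0.27 over the 10122. Log2 ratios of high over low medium at days 5 and 9 had a correlation of 0.53 over the members. That was 0.48 over the 292 and 0.33 over the 10122. The day 9 high medium array, used to choose the members, enters both correlations, and nothing is read from them.

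High and low medium were compared at day 5, again on arrays the rule did not use. High medium read at least 2-fold above low medium for 5 members (6.17%) and at least 2-fold below it for 6 (7.41%). Over all probe sets the shares were 0.765% and 0.396%, and over those bright enough to qualify 1.08% and 0.583%. Of the 5, 266070_at was below the floor in low medium, so its ratio is a bound. The members lay on both sides of a median log2 ratio of -0.062, and the 292 that dipped without recovery lay on both sides of -0.054. AT3G28580 read 122 in high against 55.3 in low medium and AT1G43910 read 175 against 79.9, log2 ratios of 1.14 and 1.13. AT1G19020 and AT1G72900 came next, with 0.96 and 0.90, then AT2G30930 with 0.64 and AT4G37290 with 0.47. In the other direction AT2G04480 read 29.2 in high against 91.9 in low medium, a log2 ratio of -1.65, and AT1G28190 read 34.8 against 70.7, a ratio of -1.02. AT3G63240, AT4G17350, AT3G47210 and EXLA1 followed with -0.98, -0.80, -0.51 and -0.50. Among unnamed members 267083_at stood highest, at 400 in high against 89.1 in low medium, and 266663_at and 263360_at stood lowest, with log2 ratios of -1.51 and -1.50. Of the 292 that dipped without recovery, 8 (2.74%) lay at least 2-fold above low medium and 17 (5.82%) below it. In 35 of the 292 both arrays were at the floor. With 1 array per medium and day no test was made.

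**Figure D4:**
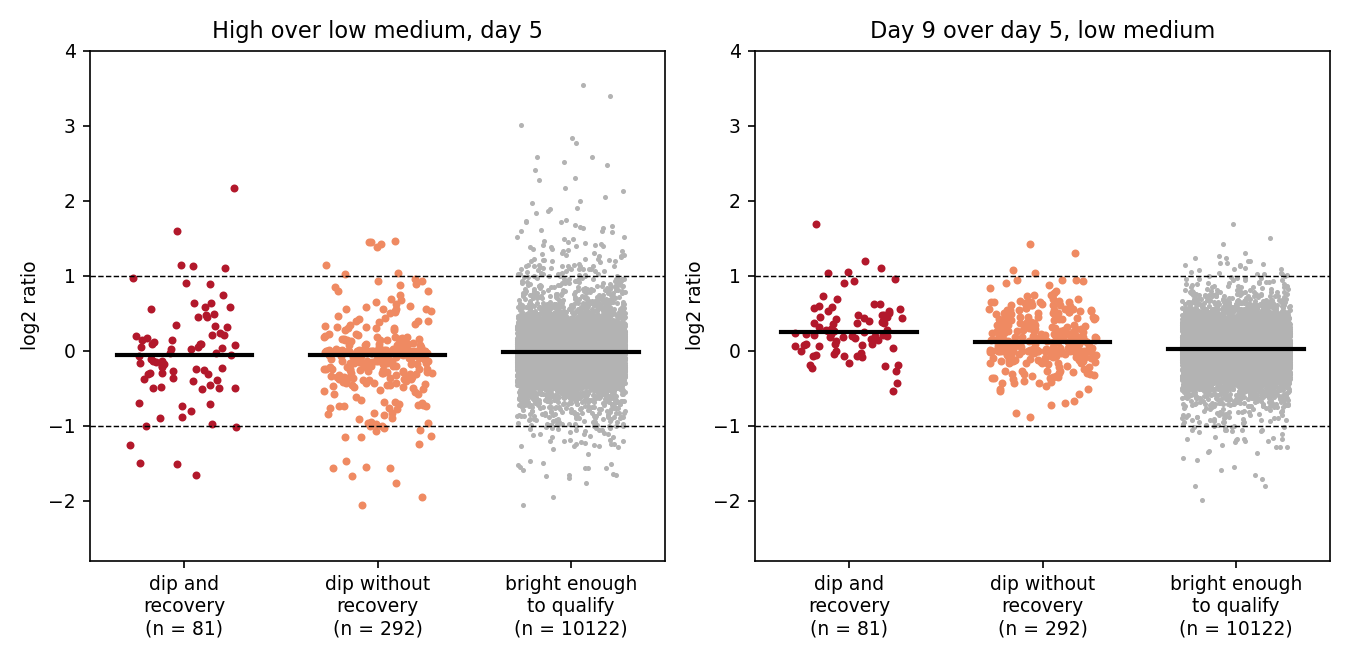
Points are log2 ratios of single probe sets for both comparisons made on arrays that did not choose the members, with black bars at the medians and dashed lines at 2-fold. For high over low medium at day 5 (left) the members scatter on both sides of a median of -0.062, and for day 9 over day 5 in low medium (right) their median is 0.25 and no member lies below the lower dashed line. On the right, none of the 292 that dipped without recovery lies below that line either.

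At day 9 fewer members differed 2-fold between media. High medium read at least 2-fold above low medium for 3 members and at least 2-fold below for 0, where 0.264% and 0.149% of all probe sets did, and the high medium array at day 9 had been used to choose the members. AT1G72900 was the named one of the 3, at 199 in high against 88.5 in low medium, a log2 ratio of 1.17. AT1G43910 and AT5G22460 were just short, with 0.97 and 0.96. EXLA1, FMO and AT4G17350 read nearly the same in both media at day 9, with intensities of 593, 461 and 169 in high against 620, 445 and 169 in low medium.

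Against callus, which the rule also used, 29 members were at least 2-fold lower in high medium at day 5 and 25 in low medium at day 5, where 2.4% of all probe sets were in each comparison. At day 9 the counts were 5 in high and 13 in low medium, with 1.71% and 1.57% of all probe sets. These comparisons share the callus array, whose readings were high by choice, so nothing is read from their counts. At day 9 in low medium 254833_s_at, which matches more than 1 gene, was the only member at least 2-fold above callus, with 148 against 60.7, where 1.19% of all probe sets were.

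Auxin response genes gave 0 members. Of 8 measured genes on that list, 0 were at least 2-fold lower at day 2 and the median log2 ratio of day 2 over callus was -0.43. By day 9 in high medium 2 of them read at least 2-fold above day 2, as 0.87% of all probe sets did. The list median of day 9 over day 2 was 0.68, against 0.00 over all named genes, where pairs at the floor count as 0.00. Over the 10122 probe sets bright enough to qualify it was 0.01. GH3.1, whose enzyme joins auxin to amino acids, had 165 in callus and a high medium series of 88.6, 104 and 257, a log2 ratio of -0.89 at day 2 over callus, short of 2-fold. LBD16, a transcription factor gene of lateral root and callus founding, read 137 in callus and 89.8, 95.3 and 154, outside both thresholds. IAA20 and IAA30, of the Aux/IAA family of auxin response repressors, ran the other way, with log2 ratios of 0.54 and 0.78 for day 2 over callus and -0.91 and -0.92 for day 9 over day 2. Across the 16 lists, 25 of 205 loci were measured, 6 lists had none, and LTI30 and Hsp70-2 were the only members on any of them. Of the lists not described above, ethylene, cell cycle, cytokinin, defence, flavonoid, sugar starvation and hypoxia had 1 or 2 measured genes each. In these 7 the only gene at least 2-fold lower at day 2 was AT4G17260, a lactate dehydrogenase gene on the hypoxia list, with 365 at day 2 and 391 at day 9 in high medium against 733 in callus. The named members did not cluster, and the closest pair in TAIR10.1 gene order, AT3G47210 and AT3G47480, lay 42 genes apart.

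The arrays had been brought to a common level by the authors, with trimmed means of 99.2 to 99.4. Scan background was 69.0 to 82.0 on all arrays but low medium at day 5. The median of 18 spike-in controls relative to callus was 1.19 at day 2 and between 0.952 and 1.69 over the liquid cultures. The highest value, 1.69, was on the high medium array of day 5. That array enters the day 5 comparison of media and the classes of return by day 5. The part of the spike-in levels in the members' values was not tested. The ratio of 3′ to 5′ GAPDH signal was 1.06 at day 2 and 0.969 in callus, and its part in the members' values was not tested.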

How the data were processed

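The deposited table holds 1 intensity per probe set and array on a linear scale, for 22810 probe sets on 6 ATH1 arrays. Which software the authors used to summarise and scale these intensities is not given in the sources used. Groups came from the source names in the labels. The 64 control probe sets were left out. The scaling was kept, values below 24.7 (each array's 40th percentile, median taken over the 6) were raised to it, and log2 ratios were taken in Python 3.11.15 with pandas 2.3.3. Where 1 of a pair of arrays sat at this floor the ratio is only a bound. A difference was called at 2-fold or more. With 1 array per condition no test or p-value was computed, and the number of arrays limits the precision.

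Of 22746 probe sets, 13513 had 1 gene in the 2016 platform annotation, 503 several and 8730 none. RefSeq (TAIR10.1) matched 13436 and was used for names and gene order. Lists used the probe set with the highest mean per gene. Family lists were matched by words in gene names and synonyms, so they may not hold whole families. Roles are general knowledge, assigned after the members were known. Members, lists and families were chosen with earlier results of these data known. Named genes were those with the largest dip, recovery and medium difference at day 5, those on a list and those nearest the thresholds; the other single-gene members were added after their values were seen. The rule was tested on simulated data. No sequences were used here.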

Additional observations from a re-analysis of the deposited data

Results flagged for a closer look

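The comparison of high with low medium ran in opposite directions at days 5 and 9 for the following results, and the difference between the days was not tested. AT1G21520 read lower in high medium at day 5, with a log2 ratio of -0.39, and higher at day 9, with 0.62. AT3G47210 had -0.51 at day 5 and 0.37 at day 9. The median over the 81 members was -0.062 at day 5 and 0.16 at day 9. Each value rests on 1 array per medium, and the day 9 high medium array was used to choose the members.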

How the results depend on the processing

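The number of members depended on the floor and the thresholds. Lowering the floor to the 20th percentile gave 214, including all 81, and raising it to the 60th gave 41. A dip of at least 3-fold left 24, and members with 1 gene, an alternative chosen after seeing the data, numbered 35. With array medians made equal there were 69 and with quantile normalization 73. With the floor at the 60th percentile 2 members were at least 2-fold higher in high than in low medium at day 5, 3 higher at day 9 than at day 5 in low medium, 15 lower than callus in low medium at day 5, and 11 higher at day 5 than at day 2 in high medium. Among members above the floor on all 6 arrays, 3 were higher at day 9 than at day 5 in low medium. At 1.5-fold the counts were 12 higher and 13 lower in high than in low medium at day 5, 13 higher at day 9 than at day 5 in low medium, 45 and 34 lower than callus in low medium at days 5 and 9, and 48 higher at day 5 than at day 2 in high medium. Among members with 1 gene the same counts at 2-fold were 2, 2, 2, 10, 6 and 11. The count of members lower at day 9 than at day 5 in low medium was 0 under each of these settings. Of 140 values of named members under the 2 other scalings, 131 kept their side of 2-fold and 9 did not. The sign differed in 2 of the 140, both for AT4G36580 in high over low medium at day 5, with log2 ratios of 0.013 with equal medians and 0.019 with quantile normalization, against -0.026 as reported. The other counts stayed within 1.5 times. No paired analysis was possible because each group has 1 array. Dim members are limited by the floor: 6 lay below it at day 2.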

Other observations

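The deepest dip of all belonged to a probe set unnamed here. 262518_at had an intensity of 1011 in callus, the highest of any member, with a high medium series (days 2, 5 and 9) of 53.5, 91.2 and 119 and a low medium series of 96.2 and 129. Its dip was 18.9-fold and its return only to 0.118 times callus. Among other unnamed members 251428_at and 247925_at overshot callus in high medium, at 181 and 315 at day 9 against 105 and 202 in callus. 266663_at and 263360_at barely differed between days 2 and 5 in high medium, at 54.2 and 59.7, and at 141 and 143, while low medium at day 5 read 171 and 403. 266070_at was below the floor at day 2 in high medium and at day 5 in low medium, and read 74.7 in high medium at day 5.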
